A study of Arabidopsis thaliana with 75 samples.

Results

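The transcripts of gl2 mutant root epidermis were compared with those of wild-type root epidermis across all 21440 genes on the array, using 6 of the 75 arrays in the series. The 3 gl2 arrays came from seedlings of the genotype gl2-1 WER::GFP and the 3 wild-type arrays from Columbia seedlings carrying WER::GFP, all 6 processed at Michigan and chosen by their sample titles. Seedlings of both groups were 5 days old and had grown in continuous light on MS medium with 1% sucrose, and the root was cut about 2 mm from its tip. GFP-positive cells were collected by fluorescence-activated sorting, so both groups share the transgene. WER::GFP is a reporter that labels the developing epidermis and the lateral root cap, more strongly non-hair than hair cells, and each line received it by crossing from a single transgene insertion. Each sample pooled the root tips of many seedlings. The gl2-1 allele is a small deletion with a frameshift, so the GL2 transcript can still be made and its level is no test of the genotype. The accession in which gl2-1 arose is not given in the sources used here.

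GLABRA2 (GL2) encodes an HD-ZIP class IV transcription factor, a homeodomain protein of the plant epidermis. In the root it is made mainly in cells that take the non-hair fate, where it keeps root hair genes off; in its absence cells in the non-hair position form hairs as well. A complex of a MYB protein (WER or MYB23), bHLH proteins (GL3 and EGL3) and the WD-repeat protein TTG1 switches GL2 on in non-hair cells. Lines that lack part of this complex are called hairy lines, and cpc try, which lacks the small MYB proteins that counter the complex in hair cells, is hairless. Other groups were set beside gl2 here, also with 3 arrays each from Michigan. Of these lines 3 were hairy: wer myb23 (wer-1 myb23-1), gl3 egl3 (gl3-1 egl3-1) and ttg (ttg1-13). Further ones were the hairless cpc try (cpc-1 try-82), rhd6 (rhd6-1) and myc1 (myc1-1, mutant in a bHLH gene of cell fate). The rhd6 seedlings were untreated or had been moved to unsupplemented medium (MS), the auxin IAA or the ethylene precursor ACC. Lines with mutations in root hair growth were bhlh66, cobl9, cow1, csld3, ire, lrx1, mrh1, mrh2, mrh3 and rhd2. All of them carry WER::GFP. In sorted populations, fewer cells of a type and less RNA per cell cannot be told apart.

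No gene at the top of this pathway passed the test between gl2 and wild type. None of the 14 measured regulators of epidermal cell fate was called, where called means a difference of more than 2-fold with an adjusted p below 0.05 in limma's moderated test (Benjamini-Hochberg adjustment across all 21440 genes). The spread of each gene in that test came from all 63 Michigan arrays. Over all genes 0.215% were called, so none of 14 is near that share. Transcript levels are log2 values throughout. The level of GL2 (AT1G79840) was 8.0, 7.42 and 7.70 on gl2 replicates 1, 2 and 3 and 9.08, 8.04 and 7.81 on the wild-type replicates. The ranges overlapped, and the difference of -0.60 (95% interval from -1.82 to 0.61) did not pass the test. WER, which specifies the non-hair fate, was at 11.30 ± 0.39 in gl2 and 11.50 ± 0.21 in wild type (SD, n = 3). MYB23, its relative, stood at 7.23 in gl2 and 7.82 in wild type, a difference of -0.59 with an interval from -1.29 to 0.11. Against the mean of 8 root hair growth lines (bhlh66, cobl9, cow1, ire, lrx1, mrh1, mrh2 and rhd2) in place of wild type, MYB23 was the single regulator of the 14 that was called, with a difference of -1.28 (adjusted p = 0.00212 in limma), where 1.67% of all genes were called. That reference was added after seeing the data.

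The bHLH and WD-repeat partners were not called either. EGL3 differed by -0.10, TTG1 by -0.03 and MYC1, a further bHLH partner, by 0.00, with standard errors of 0.49, 0.25 and 0.57. Among the small MYB proteins that act against the complex, CPC differed by -0.27, TRY by -0.44, ETC1 by 0.39 and ETC2 by 0.13. SCM, the receptor kinase that passes positional information to the epidermis, differed by -0.33, and TTG2, a WRKY factor downstream of the complex, by -0.16. RHD6, a bHLH factor that starts hair formation and lies downstream of GL2, had levels of 9.89, 10.28 and 10.20 in gl2 and of 9.68, 9.69 and 9.41 in wild type. Its 3 gl2 values lay above all wild-type values, yet the difference of 0.53 (interval from -0.14 to 1.2) was not called. The regulator farthest from wild type was the MYB factor MYB30, at 5.84, 4.82 and 4.70 in gl2 and 6.54, 8.39 and 7.44 in wild type. Its difference of -2.34 had a standard error of 1.00 and also missed the threshold (adjusted p = 1.0 in limma), although no gl2 value reached a wild-type value. By RT-PCR on seedling roots, the paper reported a reduction of MYB30 RNA in gl2.

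**Figure D1:**
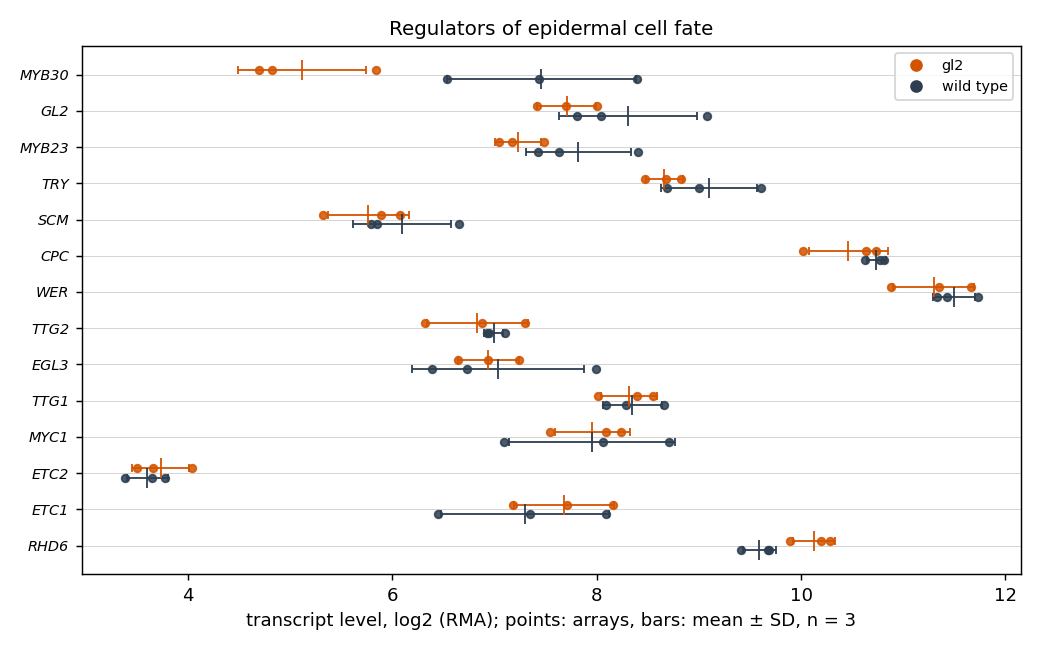
Transcript level (log2, x axis) of the 14 measured regulators of epidermal cell fate on the 3 gl2 arrays (orange) and the 3 wild-type arrays (dark), with mean and SD. The groups overlap for most regulators, GL2 at 7.71 against 8.31 among them, and MYB30 lies lowest in gl2 relative to wild type, at 5.12 against 7.46.

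Across all genes, 46 were called between gl2 and wild type, 0.215% of those tested. Of these, 25 were lower in gl2 (0.117%) and 21 higher (0.0979%). A further 401 genes differed by more than 2-fold without passing the test, and 660 genes had an unadjusted p below 0.05. For each of the 46 genes the 3 gl2 values and the 3 wild-type values did not overlap, as was also so for 10.5% of all genes. Changes were up to 20.8-fold downwards and 19.5-fold upwards. The count depended on single arrays: it was 43, 25 and 31 without gl2 replicates 1, 2 and 3, and 27, 27 and 29 without the wild-type replicates. Without gl2 replicate 2 only 9 genes were called lower. Of the 46 genes, 18 (8 lower and 10 higher) were called in each of the 6 fits that left out an array.

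**Figure D2:**
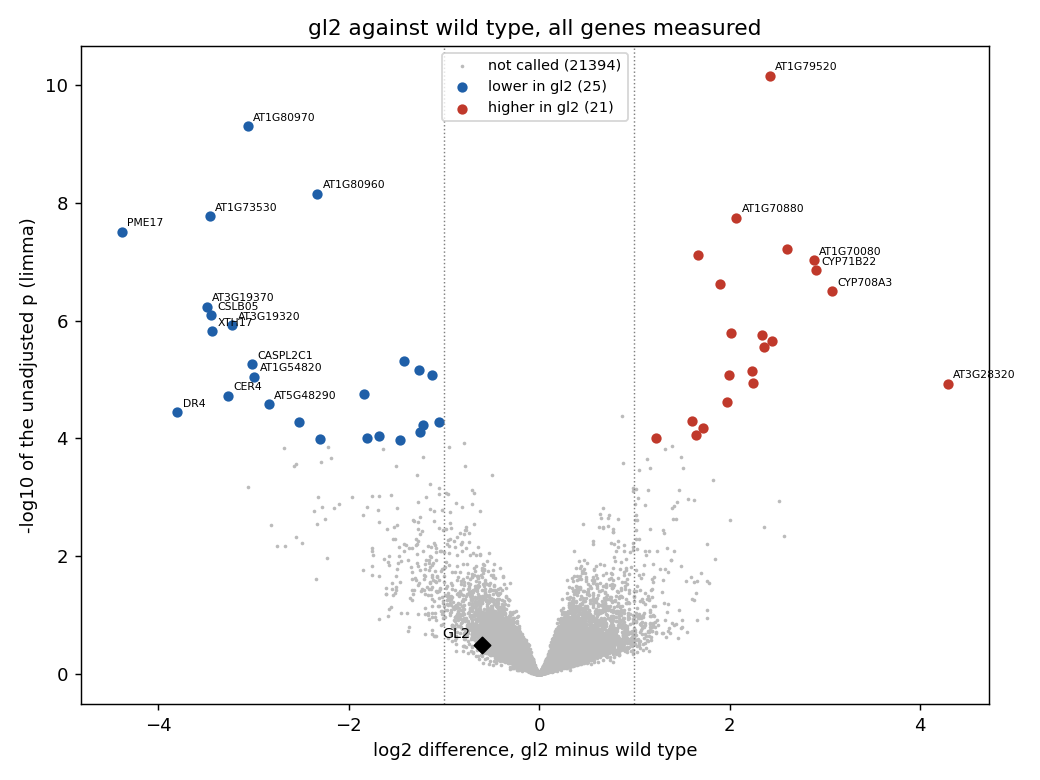
Log2 difference between gl2 and wild type (x axis) against -log10 of the unadjusted p of limma (y axis) for 21440 genes. Blue points are the 25 genes called lower in gl2, red points the 21 called higher, grey points the rest, dotted lines mark 2-fold, and GL2 itself (diamond) lies at -0.60.

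Genes of the lists for the cell wall, the cuticle and aquaporins were among those that fell. The counts of called members per list given below stand beside 0.117% of all genes called lower and 0.0979% called higher. The largest fall was that of PME17 (AT2G45220), a pectin methylesterase, which removes methyl groups from wall pectin. Its level was 4.77, 4.78 and 4.95 in gl2 and 8.99, 9.34 and 9.31 in wild type. The groups were far apart, a fall of 20.8-fold (log2 difference -4.38, standard error 0.66, adjusted p = 0.000111 in limma). It was called in each fit that left out an array. PME17 was the sole member called of the 14 measured pectin methylesterases matched by name, whose median difference of -0.10 lay near that of all genes, 0.01. Members of the family under other names were not counted.

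XTH genes encode xyloglucan endotransglucosylase/hydrolases, which cut and rejoin the xyloglucan that links cellulose in the wall. Of the 33 measured members 4 fell while none rose, beside 0.117% of all genes called lower. XTH17 (AT1G65310), which GL2 has been reported to bind, had levels of 7.74, 7.47 and 7.85 in gl2 and 11.05, 10.98 and 11.34 in wild type, a fall with a log2 difference of -3.43 ± 0.62 (standard error) that passed the test in limma at an adjusted p of 0.00205. Its groups were separated by more than 3 log2 units. XTH18 (AT4G30280) stood at 10.94, 10.67 and 10.34 in gl2 against 11.89, 12.02 and 11.83 in wild type, a smaller fall of 1.26 on the log2 scale (standard error 0.25). XTH17 and XTH18 are close paralogs, and whether their probe sets cross-hybridize was not tested. XTH33 (AT1G10550) fell from a mean of 8.25 to 5.95, with 5.09, 5.95 and 6.80 in gl2 and 7.68, 7.82 and 9.25 in wild type. XTH31 (AT3G44990) was a dim transcript that differed by -1.42, from 5.86 to 4.44. It was wild type that stood apart for XTH31: the other 19 Michigan groups had means between 3.86 and 5.02, all below the wild-type mean. Over the whole XTH family the median difference was -0.04. XTH17 kept its call without any single array, XTH18 lost it without gl2 replicate 3 or wild-type replicate 2, XTH31 without gl2 replicate 2 or wild-type replicate 3, and XTH33 in 5 of the 6 fits, all but that without gl2 replicate 3. Over those fits the difference ran from -1.41 to -1.11 for XTH18, from -1.63 to -1.19 for XTH31 and from -2.73 to -1.81 for XTH33.

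CSLB05 (AT4G15290), a member of the cellulose synthase-like B family, was at 6.04, 5.31 and 5.13 in gl2 and 8.74, 9.34 and 8.71 in wild type. It fell 10.8-fold (log2 difference -3.44, standard error 0.60, adjusted p = 0.00125 in limma) and was called without any single array. The other 3 measured CSLB genes were not called, and their differences were between -0.02 and 0.45. PIP1;5 (AT4G23400), an aquaporin that carries water through the plasma membrane, was the single gene called of 9 measured PIP genes. It was at 10.53, 9.47 and 9.93 in gl2 and at 11.38, 11.32 and 11.61 in wild type, a difference of -1.46 (adjusted p = 0.0482 in limma), and it was called in 1 of the 6 fits that left out an array, that without gl2 replicate 1. CASPL2C1 (AT4G25830), a relative of the membrane proteins that mark the Casparian strip, had levels of 7.08, 5.63 and 5.72 in gl2 and 9.13, 9.15 and 9.18 in wild type. Its wild-type values were nearly identical and its gl2 values spread over more than 1 log2 unit. The difference was -3.01 (adjusted p = 0.00536 in limma), and it lost its call without gl2 replicate 2 (-2.75 and -3.48 bound the differences of the 6 fits) or without gl2 replicate 3.

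Of 34 measured genes for the cuticle and very-long-chain fatty acids, 2 fell and none rose, beside 0.117% of all genes called lower. CER4 (AT4G33790), a fatty acyl reductase that makes primary alcohols of waxes, was at 6.57, 6.10 and 5.48 in gl2 and 9.27, 9.35 and 9.33 in wild type (log2 difference -3.27, standard error 0.68, adjusted p = 0.0131 in limma). KCS5 (AT1G25450), a ketoacyl-CoA synthase of fatty acid elongation, was at 6.60, 6.94 and 7.35 in gl2 and 8.71, 8.60 and 9.0 in wild type, a difference of -1.81 with an adjusted p of 0.0466 in limma. Neither gene's groups overlapped. CER4 was called only in the fit without gl2 replicate 1, and KCS5 in none of the 6 fits that left out an array, with differences between -3.53 and -2.98 for CER4 and between -2.0 and -1.62 for KCS5. KCS20, LTPG1 and LACS1 of the same list differed by -1.29, -1.10 and -1.08 and were not called.

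Among the 12 largest falls were also genes known here by locus alone. AT3G19370 was at 3.48, 3.40 and 3.70 in gl2 and 7.28, 6.72 and 7.06 in wild type, and AT3G19320 at 4.63, 4.34 and 4.71 against 7.81, 7.89 and 7.65. The groups did not overlap for either gene, and their differences of -3.49 and -3.22 were called without any single array. AT1G54820 differed by -2.99, from 6.71 to 3.72, and AT5G48290 by -2.84, from 7.12 to 4.28. AT1G54820 was not called without gl2 replicate 2 or wild-type replicate 1, and AT5G48290 not without gl2 replicate 1 or 2 or wild-type replicate 2 or 3. The remaining falls away from GL2 were smaller and are named after their values were seen: AT1G19900 (-2.52), the pinoresinol reductase PRR2 (-1.84) of lignan synthesis, PSK4 (-1.68), a precursor of the growth peptide phytosulfokine, the ABC transporter ABCC10 (-1.22) and the splicing endonuclease SEN1 (AT3G45590, -1.12). AT1G19900 and PRR2 were called only in the fit without gl2 replicate 1 and PSK4 in none of the 6, while ABCC10 was called without gl2 replicate 3 or wild-type replicate 2, and SEN1 without gl2 replicate 1 or wild-type replicate 2 or 3.

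**Figure D3:**
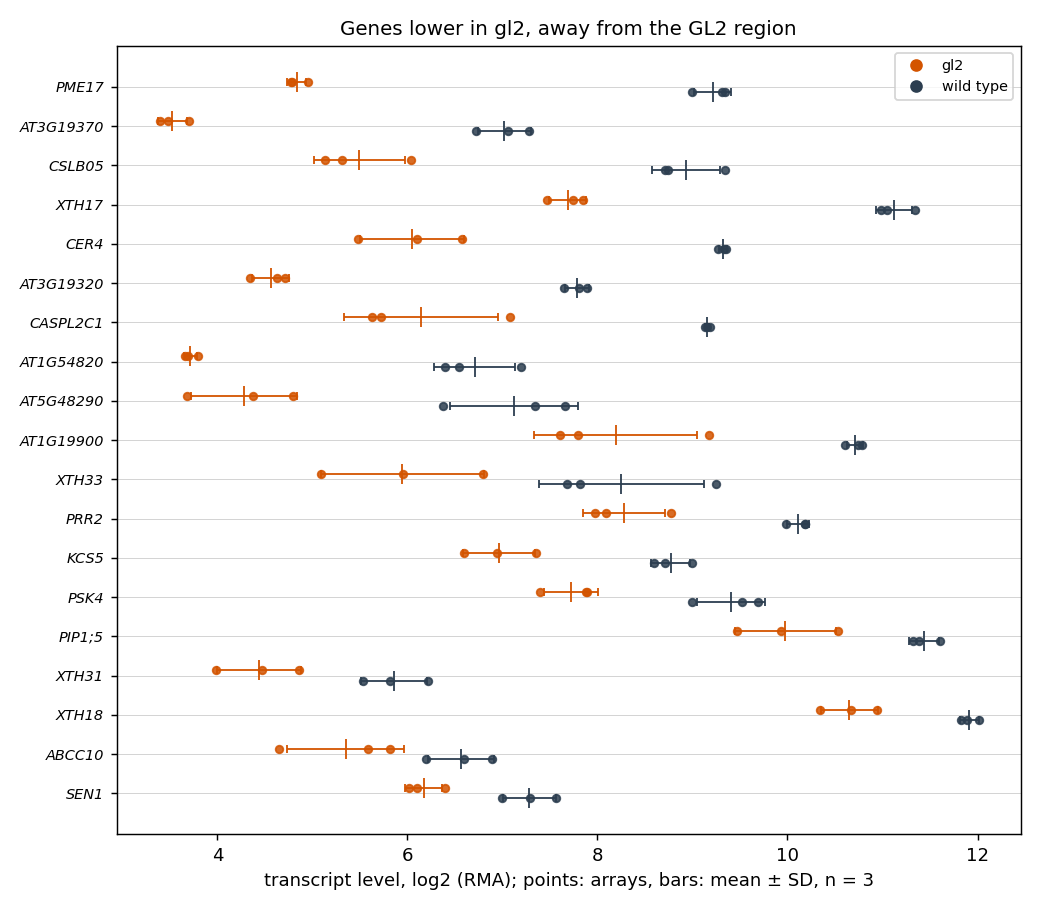
Transcript level (log2, x axis) on each gl2 array (orange) and wild-type array (dark), with mean and SD, for the 19 genes called lower in gl2 that lie more than 1000 measured genes from GL2 or on another chromosome. The groups do not overlap for any of them, and the widest gap is that of PME17, with means of 4.83 and 9.21.

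None of 21 alpha expansins, 6 extensins, 17 fasciclin-like arabinogalactan proteins, 29 arabinogalactan proteins or 11 peroxidases matched by name was called, and the medians of these families lay between -0.21 and -0.04. A count of none in families of this size is near the share of all genes called, 0.215%. EXT4, an extensin, was at 2.58, 2.48 and 2.16 in gl2 and 5.03, 4.93 and 4.23 in wild type, a difference of -2.32 with an interval from -3.65 to -0.99 (adjusted p = 0.239 in limma). The peroxidase PER4 was at 5.45, 5.39 and 5.30 against 7.55, 8.75 and 8.25, and AT5G64120 at 6.97, 5.92 and 5.80 against 8.44, 8.91 and 9.36. Neither difference, -2.81 and -2.67, passed the test, although no gl2 value reached a wild-type value. EXPA12, an expansin, which loosens the wall, differed by -1.32.

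No gene of the root hair lists rose or fell past the threshold other than XTH17, a wall gene that shares a list with the bHLH factors of hair growth. As 0.215% of all genes were called, a count of none in lists of this size is near that share. None of the core hair genes was called, and all 5 core genes called were non-hair genes that fell: PME17, AT3G19320, XTH17, XTH33 and KCS5, of 54 measured. Over all genes 0.117% were called lower. These core lists were chosen by the study on arrays of the hairy lines and cpc try, of which the Michigan ones are in the same fit, so their direction is not independent evidence. Among the core hair genes, 5 had an unadjusted p below 0.05 and the differences ran from -1.01 to 0.85 with a median of 0.18, beside 0.01 for all genes. AT2G01090, a core hair gene, differed by -0.96 and was called without gl2 replicate 3, where the count of core hair genes was 1. Of 22 genes of hair tip growth none was called; ROPGEF3, which activates the ROP GTPases that mark the hair site, differed by 0.45 and the kinase IRE by 0.41. The bHLH factors of hair growth RSL4, LRL1 and LRL3 differed by 0.28, 0.80 and 0.17 and were not called either.

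The core non-hair genes were mostly on the lower side. Their median difference was -0.38 and 16 of 54 were more than 2-fold lower, beside 233 of all 21440 genes. Of the 16, 5 passed the test. Without gl2 replicate 1 or 2, or any wild-type replicate, the count was 3. The study sorted most core non-hair genes into clusters A to D of its gene network, and 1 of 19, 3 of 11 and 1 of 16 members of clusters A, B and C were called, with medians of -0.23, -1.15 and -0.65. The share of all genes called lower was 0.117%. The 4 genes of cluster D had a median of 0.25 and none was called; the glutathione transferase gene GSTU11 differed by 0.65 and the kinase gene RBK1 by 0.46. AT3G29410 had a mean of 6.58 in gl2 and 4.22 in wild type, the only core non-hair gene more than 2-fold higher, and was not called (difference 2.36, adjusted p = 0.473 in limma).

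The lists for a further set of functions held no called gene. None was called of 16 HD-ZIP class IV genes, 17 glucosinolate genes, 18 flavonoid and anthocyanin genes, 7 genes of the thalianol and marneral clusters, 13 iron acquisition genes, 15 nutrient uptake genes, 17 cell cycle genes, 22 wounding and stress genes or 22 auxin and ethylene genes. With 0.215% of all genes called, no call in lists of this size is near that share. CHI, the chalcone isomerase of flavonoid synthesis (AT3G55120), was at 5.59, 4.70 and 4.23 in gl2 and 3.04, 3.87 and 3.37 in wild type, a difference of 1.41 (adjusted p = 0.761 in limma), and 4CL3 differed by 1.30. The heat shock genes HSP17.6II and HSP70 differed by 1.16 and 0.84, with the highest values, 9.83 and 10.61, on gl2 replicate 3. The iron-responsive F6'H1, of coumarin synthesis, differed by -1.45 and BHLH39 by 0.70. CYP83B1 and MYB51 of glucosinolate synthesis differed by -0.91 and -0.87.

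The sorted cells had epidermal markers at high levels in both groups. The 6 markers of epidermis and hair summed to between 8590 and 9400 signal units on the gl2 arrays and between 8300 and 9790 on the wild-type arrays, on the unlogged scale. The 4 markers of lateral root cap and columella summed to between 3760 and 5350 in gl2 and between 2640 and 6030 in wild type, with BRN2, a regulator of root cap maturation, at 10.99 and 10.65. The 4 markers of cortex and endodermis were dim and summed to between 79.4 and 131 in gl2 and between 133 and 217 in wild type. The gl2 sums were lower by a narrow margin, 131 against 133. CASP1, which builds the Casparian strip of the endodermis, differed by -1.61 and its regulator MYB36 by -0.99, neither called, while SCR differed by -0.12 and AT1G62500 was near the lowest signals in both. Means of CASP1 in the other Michigan groups ran from 5.08 to 6.70, beside 5.02 in gl2 and 6.63 in wild type. Those of MYB36 ran from 3.56 to 4.48, beside 3.51 in gl2 and 4.50 in wild type. The 5 stele markers summed to between 862 and 1220 in gl2 and between 849 and 1350 in wild type. The part of these cell types in the falls described above was not tested.

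A share of the called genes lay near GL2 on chromosome 1. Of the 46 genes, 18 were on chromosome 1 (0.325% of its 5530 measured genes), 12 on chromosome 3, 10 on chromosome 4, 4 on chromosome 5 and 2 on chromosome 2. Within 1000 measured genes of GL2 along the chromosome, 13 of 1095 genes were called (1.19%), 6 lower and 7 higher, and outside this window 33 of 20345 (0.162%), 19 lower and 14 higher. GL2 is close to the end of the chromosome, with 94 measured genes beyond it. Within 100 measured genes of GL2, 3 of 195 genes were called. The window was set after the positions were seen, and the counts are a description with no test.

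The genes in this window included the lowest p-values of the comparison. AT1G79520, 29 measured genes from GL2, was at 9.08, 9.11 and 9.77 in gl2 and 6.91, 6.75 and 7.04 in wild type (difference 2.42, standard error 0.29, adjusted p = 1.52e-06 in limma). Its groups were more than 2 log2 units apart, and of the other Michigan groups only mrh3 came near gl2, with a mean of 8.80. AT1G80970, 94 measured genes beyond GL2 at the end of the chromosome, was at 3.64, 3.58 and 3.90 in gl2 and 6.32, 7.60 and 6.37 in wild type (difference -3.06, adjusted p = 5.39e-06 in limma), and its neighbour AT1G80960 fell from a mean of 6.34 to 4.01. CYP708A3 (AT1G78490), a cytochrome P450 gene, was at 7.13, 8.34 and 8.59 in gl2 and 4.80, 4.96 and 5.09 in wild type, the second largest rise at 8.38-fold. AT1G78410, near it, rose by 2.23 from 7.80 to 10.04. AT1G73530 differed by -3.46, with 5.04, 5.57 and 5.73 in gl2 against 8.66, 9.01 and 9.05 in wild type, and DR4 (AT1G73330), named as a drought-repressed gene, by -3.80, with 3.05, 4.02 and 5.54 against 6.79, 8.28 and 8.95. The spread of DR4 was wide in both groups. AT1G70080 rose by 2.88, from 7.85 to 10.74, and AT1G70880 by 2.07, from 4.68 to 6.75. NUDX1, a nucleotide hydrolase, and AT1G69800 rose by 1.67 and 1.90, and GDPD4, a glycerophosphodiester phosphodiesterase, and the cellulase gene GH9B1 fell by 1.25 and 1.05; these 4 genes are named after their values were seen. Of the 13 genes, 9 were called without any single array. The other 4 were DR4 (not without gl2 replicate 1 or 2 or wild-type replicate 2 or 3), AT1G78410 (not without gl2 replicate 3 or wild-type replicate 1), GDPD4 (called only without wild-type replicate 3) and GH9B1 (called only without gl2 replicate 3).

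**Figure D4:**
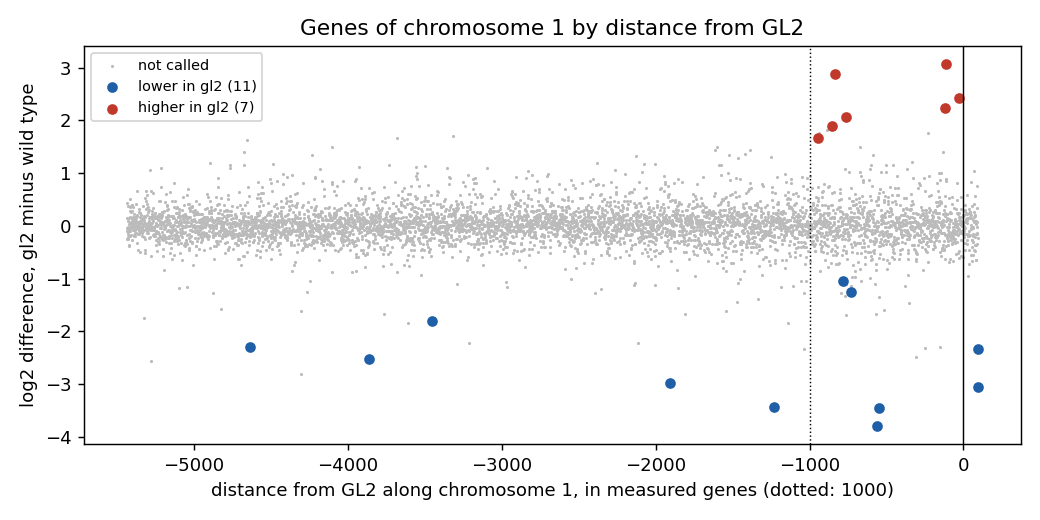
Log2 difference between gl2 and wild type (y axis) for the 5530 measured genes of chromosome 1, by their distance from GL2 in measured genes (x axis). Blue and red points are genes called lower (11) and higher (7) in gl2, and all 7 of the higher ones lie within 1000 measured genes of GL2 (dotted line).

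Away from GL2, 14 genes rose. The largest rise was that of AT3G28320, at 8.43, 9.14 and 7.64 in gl2 and 4.61, 3.81 and 3.92 in wild type, a 19.5-fold difference (log2 4.29, standard error 0.87, adjusted p = 0.00873 in limma). It was not called without gl2 replicate 2 or wild-type replicate 2 or 3, with differences between 3.92 and 4.67 over the 6 fits. CYP71B22 (AT3G26200), a cytochrome P450 gene, was at 6.16, 7.65 and 6.64 in gl2 and 3.50, 3.93 and 4.29 in wild type, a rise of 7.52-fold. AT3G28610 was at 7.20, 5.78 and 5.85 against 3.90, 3.55 and 3.58, a rise of 6.05-fold. EXO70H4 (AT3G09520), a subunit of the exocyst, which tethers secretory vesicles at the plasma membrane and takes part in wall thickening of leaf trichomes, was at 6.95, 5.72 and 6.64 in gl2 and 3.74, 4.21 and 4.29 in wild type (difference 2.36, adjusted p = 0.00297 in limma). These last 3 genes, and the pseudogene AT2G13750 with a difference of 2.34, were called without any single array.

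Some of the genes that rose varied widely within gl2. AT5G15360 was at 3.69, 6.21 and 6.36 in gl2 against 3.10, 2.89 and 2.95, so gl2 replicate 1 lay much closer to wild type than its fellow replicates. The difference of 2.44 was 3.3 without gl2 replicate 1, and it was not called without gl2 replicate 2 or 3. AT5G19100 had the same order, with 7.30 on gl2 replicate 1 and 9.88 and 9.10 on replicates 2 and 3, beside 6.51, 6.99 and 6.87 in wild type. AT4G13230 differed by 2.24 and was not called without gl2 replicate 2 or 3 or wild-type replicate 1 or 2. The other genes that rose differed by between 1.23 and 2.01 and are named after their values were seen: AT5G19100 (1.97), AT3G16040 (1.99), the subtilase SBT3.12 (2.01), the cytochrome P450 gene CYP81D5 (1.72), AT4G32230 (1.65), the acyl carrier protein ACP5 (1.60) and the ion channel CNGC19 (1.23). AT5G19100 and AT4G32230 were called only without gl2 replicate 1, CNGC19 only without gl2 replicate 3 and CYP81D5 only without wild-type replicate 3. ACP5 was not called without gl2 replicate 1 or any wild-type replicate, AT3G16040 not without gl2 replicate 1 or wild-type replicate 3, and SBT3.12 not without gl2 replicate 3.

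The called genes were then set beside the other Michigan groups. For 30 of the 46 genes the gl2 mean lay outside the range of the other 19 groups, 18 lower and 12 higher, as for 6.34% of all genes, and for 4 genes the wild-type mean did (DR4, AT1G73530, XTH31 and AT5G15360), as for 4.83% of all genes. The 46 genes were called on these same gl2 and wild-type arrays, so an extreme mean is in part set by that choice. The shares of all genes are therefore no like background, and the counts are a description. With the mean of the 8 growth lines as the reference in place of wild type, 43 of the 46 genes were again called, beside the 1.67% of all genes. That reference was added after seeing the data. The 46 genes had been chosen on the same gl2 arrays, so 1.67% is no like background and the count is no independent support. The 3 not called were XTH31, with a difference of 0.11 from these lines against -1.42 from wild type, XTH33 (-1.11) and ABCC10 (-0.96). This contrast shares the gl2 arrays with that against wild type, so it replaces the wild-type arrays only. The csld3 and mrh3 lines, also mutant in root hair growth, were left out of its reference. For some called genes, AT1G70080 among them, these lines lay near gl2, and for others, PME17 among them, near wild type.

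Of the 19 genes that fell away from GL2, 18 were also more than 2-fold lower than wild type in ttg, 12 in gl3 egl3 and 4 in wer myb23, against 1 in cpc try and 1 in rhd6. The genes were chosen as lower than these same wild-type arrays. The share of all genes past 2-fold in each line is not given here, so the counts are a description with no test. In wer myb23, PRR2, ABCC10 and SEN1 differed from wild type by -0.01, -0.05 and -0.07. For these genes the lowest mean among the other 19 groups was that of ttg for 14 of the 19, gl3 egl3 for 3, wer myb23 for 1 (XTH18) and bhlh66 for 1 (XTH31). Over these 19 genes the median difference from wild type was -2.52 in gl2, -1.85 in ttg, -1.52 in gl3 egl3, -0.81 in wer myb23, -0.14 in cpc try and 0.59 in rhd6; all of these use the same wild-type arrays. PME17 was at 4.83 in gl2, 5.55 in ttg, 6.31 in gl3 egl3 and 6.54 in wer myb23, and at 9.21 in wild type, 9.22 in cpc try and 10.23 in rhd6. CER4 was at 6.05 in gl2 and 6.21 in gl3 egl3, but at 9.91 in rhd6. XTH17 differed from this order in rhd6, with 8.63 there against 7.69 in gl2, 7.49 in gl3 egl3 and 11.26 in cpc try; this gene lies on chromosome 1 a little beyond the window around GL2.

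The direct contrast of gl2 with the mean of all 3 hairy lines called 69 genes, 0.322% of those tested, 23 lower and 46 higher in gl2. Of the 19 genes that fell away from GL2, 1 was called in it: AT3G19320, at 4.56 in gl2 and between 6.33 and 7.41 in the hairy lines, a difference of -2.36 (adjusted p = 0.00605 in limma). For PME17 the difference from the hairy lines was -1.30, for CSLB05 -1.73, for XTH17 -1.08 and for CER4 -1.23, and none was called. A miss of the threshold does not show that the levels were alike. Of the 14 genes that rose away from GL2, 9 were called in it, and of the 13 genes near GL2, 12 were, DR4 being the exception. With the array series of the sample names as a factor, the count of 69 became 26, and it was 26 without gl2 replicate 2 and 34 without gl2 replicate 3. TTG1 was among the 69, higher in gl2 by 1.48 on the log2 scale than in the mean of these lines, to which ttg, mutant in TTG1 itself, belongs. For others of the 69, too, ttg alone stood apart. AT5G24450 differed from wild type by -5.10 in ttg, 0.23 in gl2, 0.34 in wer myb23 and 0.08 in gl3 egl3. AT5G24430 and AT5G24490 differed from it by -4.88 and -5.22 in ttg and by -0.15 and -0.27 in gl2. How many of the 69 rest on a single line was not counted.

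Several genes near GL2 had levels in the rhd6 groups like those in gl2. AT1G73530 had a mean of 5.45 in gl2, between 5.09 and 5.46 in the 4 rhd6 groups, 6.94 in csld3 and 7.49 in mrh3, and at least 8.05 in the remaining groups. AT1G80970 was at 3.71 in gl2, at 4.11 in mrh3, 4.45 in csld3, 4.09, 4.11 and 4.22 in the ACC, IAA and MS groups of rhd6 and 5.24 in untreated rhd6, and at 6.76 in wild type. AT1G78410 was at 10.04 in gl2, between 9.93 and 10.41 in the rhd6 groups and at 9.62 in csld3, while wild type was at 7.80 and mrh3 at 6.60. AT1G70080 was at 10.74 in gl2, 10.76 in rhd6, 10.59 in csld3 and 10.53 in mrh3 against 7.85 in wild type. RHD6, the gene mutated in rhd6, also lies on chromosome 1. Other genes in the same window did not share this order: AT1G79520 was at 6.23 in untreated rhd6, below its wild-type level of 6.90, against 9.32 in gl2. AT1G70880 was at 4.72 and NUDX1 at 5.90 in untreated rhd6, against 6.75 and 7.33 in gl2 and 4.68 and 5.66 in wild type.

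Among the genes that rose elsewhere, levels in rhd6 exceeded those in gl2 for several. AT3G28320 was at 8.40 in gl2, 10.77 in rhd6, 11.39 in ttg, 9.72 in mrh3 and 4.12 in wild type. AT5G19100 was at 8.76 in gl2, 11.73 in rhd6 and 10.28 in ttg against 6.79 in wild type, and AT5G15360 at 5.42 in gl2, 7.92 in rhd6 and 2.98 in wild type. EXO70H4 was highest in cpc try, at 7.16, with 6.44 in gl2 and 4.08 in wild type. In contrast AT4G13230, SBT3.12 and AT4G32230 had means of 7.03, 6.18 and 5.50 in gl2 and at most 5.70, 5.23 and 4.48 in any other group.

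**Figure D5:**
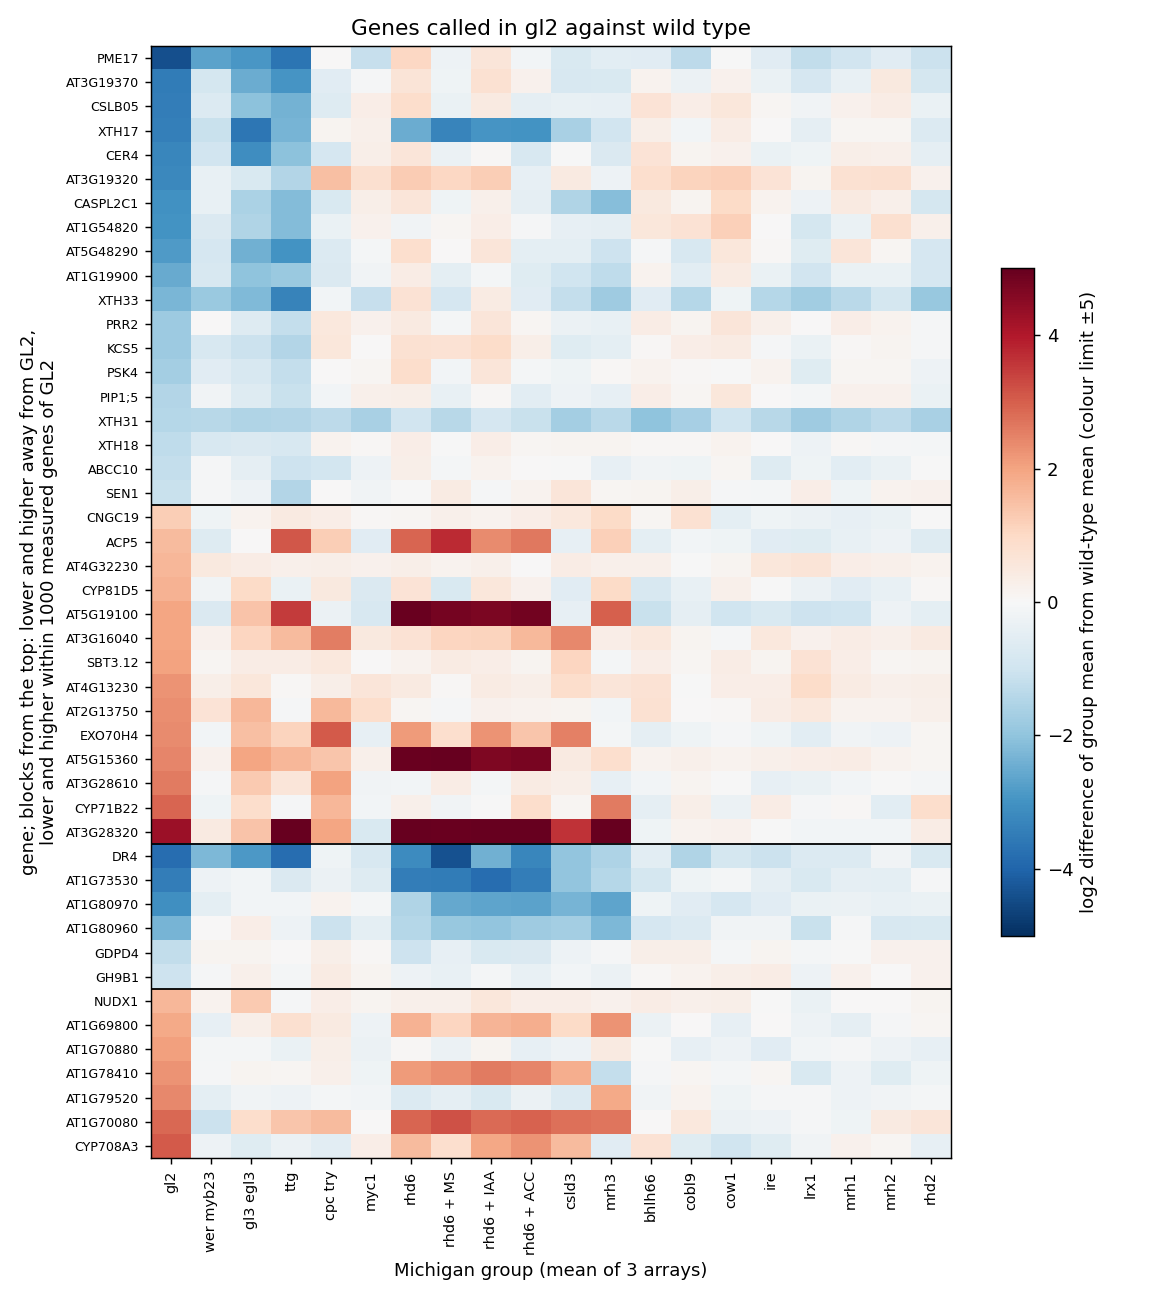
Difference of each Michigan group's mean log2 level from the wild-type mean (colour, blue lower, red higher, limited to ±5) for the 46 called genes (rows) in gl2 and the other 19 groups (columns). Lines separate 19 genes lower and 14 higher away from GL2 from 6 lower and 7 higher within 1000 measured genes of it; the top block is mostly blue in gl2, gl3 egl3 and ttg, and several rows of the lower blocks share their colour with the rhd6 columns.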

How the data were processed

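Per the labels and the paper, the authors hybridized RNA from sorted WER::GFP cells to Affymetrix ATH1 arrays and deposited log2 signals computed with RMA, a multichip average that includes quantile normalization, on redefined probe sets, 1 per gene. They were used as deposited for 21440 genes, without the 64 control probe sets. How the arrays of the facilities were normalized together is not stated. Array medians of the 6 arrays lay between 6.66 and 6.79, and correlations across genes between 0.964 and 0.984 within gl2, between 0.979 and 0.987 within wild type and between 0.965 and 0.988 across the groups. The number of arrays limits the precision: the median standard error of a difference was 0.308.

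The 63 Michigan arrays were fitted together, each group with its own mean (R 4.3.3, limma 3.58.1, lmFit and eBayes; 42 residual degrees of freedom), and every adjusted p comes from it. A gene was called at more than 2-fold and 5% FDR. The p-values measure the spread between replicate samples, each a separate pool. The script was tested on simulated data. Alternatives were a fit of the 6 arrays alone, also with the replicate number as a block; the array series of the sample names as a factor; dim genes (mean under 5) left out; a median shift; quantile normalization; other call rules; and each array left out. The 8 growth lines as reference and the count without genes near GL2 were added after seeing the data.

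Named are the fate regulators, the 12 largest rises and falls without overlap, every called gene of a list and, for a list with none, at most 4 members. The comparison and lists were chosen with earlier results of these data known. Gene names and order come from RefSeq's TAIR10.1 table, which matched 21222 loci. The planned search of promoters for the L1 box was not run, and no sequence was used here.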

Additional observations from a re-analysis of the deposited data

Results flagged for a closer look

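The difference between gl2 and the mean of the hairy lines passed limma's test, at more than 2-fold and 5% FDR, for 22 of the 46 genes called against wild type, 6 lower and 16 higher in gl2, and in each case in the direction seen against wild type. Both contrasts use the gl2 arrays. The reference is a mean of 3 lines, so a call does not mean that gl2 differed from each line. NUDX1 was at 7.33 in gl2 and 6.98 in gl3 egl3. AT4G32230 had adjusted p-values of 0.212, 0.391 and 0.0659 in limma against wer myb23, gl3 egl3 and ttg taken singly. CYP708A3 and AT1G79520 passed 5% FDR against each of the 3 lines. Near GL2 on chromosome 1 the log2 differences from the hairy lines were -3.10 for AT1G73530, -2.81 for AT1G80970, -2.36 for AT1G80960, -1.33 for GDPD4 and -1.10 for GH9B1, and 3.45 for CYP708A3, 2.72 for AT1G79520, 2.50 for AT1G70080, 2.25 for AT1G70880, 2.19 for AT1G78410, 1.67 for AT1G69800 and 1.2 for NUDX1. Away from GL2 they were -2.36 for AT3G19320, and 2.72 for CYP71B22, 1.98 for AT3G28610, 1.94 for AT4G13230, 1.72 for SBT3.12, 1.58 for AT2G13750, 1.58 for CYP81D5, 1.52 for EXO70H4, 1.27 for AT4G32230 and 1.09 for CNGC19. With the array series as a factor 14 of the 22 genes were called, 11 of them near GL2; the 8 that were not were AT3G19320, GDPD4, CNGC19, AT4G32230, CYP81D5, AT4G13230, AT2G13750 and EXO70H4. No explanation of these differences was tested.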

How the results depend on the processing

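The count of core non-hair genes moved by over 1.5 times in 9 of 14 settings, and that of all genes called in 5 of 15; the cause was not tested. The rule of 2-fold with an unadjusted p under 0.01 gave 169 genes against wild type (63 higher, 106 lower), 13 core non-hair genes and 193 genes against the hairy lines. With 1 array left out, the count ran from 25 to 43 (14 to 23 higher, 9 to 20 lower), core hair genes from 0 to 1, core non-hair genes from 3 to 4, and the hairy contrast from 26 to 70. The array series as a factor gave 26 genes in the hairy contrast and 48 against wild type, of which 45 were among the 46. The 6 arrays alone gave 44 genes (15 higher, 29 lower), of which 25 were among the 46, with 9 core non-hair genes; a median shift gave 37, all among the 46, with 3 core non-hair genes. Without genes near GL2 the count was 33. The planned search for the L1 box was not run.

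The replicate numbers were not taken to pair the samples: deviations of same-numbered arrays had correlations of -0.012, 0.179 and 0.208. Those of differently numbered arrays ran from -0.352 to 0.231. While gl2 replicates 2 and 3 correlated best with their own number, gl2 replicate 1 correlated best with wild-type replicate 2 (0.231). In the 6 arrays with the replicate number as a block, 37 genes were called (11 higher, 26 lower), 23 of them among the 46, with 8 core non-hair genes. Within these arrays the number is also the array series.

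Reversals of sign concerned genes that were not called. With 1 array left out, differences ran from -0.38 to 0.01 for WER, -0.16 to 0.12 for TTG1, -0.42 to 0.38 for EGL3, -0.43 to 0.38 for MYC1, -0.03 to 0.79 for ETC1, -0.02 to 0.25 for ETC2, -0.40 to 0.10 for TTG2, -0.04 to 0.81 for HDG9, -0.80 to 0.04 for PCNA1, -0.28 to 0.08 for APL and -0.44 to 0.95 for RBK1. The median shift gave 0.03 for TTG1. The exception was XTH31, called against wild type and at 0.11 against the 8 growth lines.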
